A study of Mus musculus with 46 samples.

Results

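E073 and E074 are 2 candidate cis-regulatory elements (cCREs, short genomic fragments with marks of possible enhancers) that lie side by side before the mouse Nanog gene. In mm10 coordinates as the files give them, E073 spans chromosome 6, 122702445 to 122702895, and E074 spans 122702829 to 122703279, so that the 450 bp fragments share 66 bp. Both are intergenic in the RefSeq annotation of GRCm38.p6. The start of E073 lies 5044 bp, and the end of E074 4210 bp, before the annotated start of Nanog at 122707489, and the nearest annotated gene is the predicted gene Gm10224, at 3377 and 3761 bp. All 2-fragment constructs of the Nanog library that hold E073 or E074 were taken, which gave 1154 of the 13523 such constructs in this library and of 89293 over all upstream libraries of the series. E073 is in 430 of them (26 before a promoter fragment, 27 after one and 377 with a cCRE) and E074 in 732 (56, 45 and 631), with 8 that hold both. The pair was picked for its effect on promoters placed after it, and that effect is described here with no test. In the authors' deposited table of boost indices (log2 of a construct over the median construct of the same promoter), E073 and E074 had the highest means of the 53 cCREs with at least 10 constructs, 3.90 over 26 and 3.58 over 56 constructs. The cCRE just below them, E064, had 3.22 over 43 constructs in the authors' deposited table.

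The study asked how freely enhancers and promoters of a locus can activate each other when taken out of their genomic place. Fragments were joined at random in pairs, in both orders and orientations, in barcoded reporter plasmids, and activity is the barcode abundance in cDNA over that in the plasmid pool. The pool of the Klf2, Nanog and negative control libraries was brought by nucleofection into E14TG2a, an established line of mouse embryonic stem cells, kept in 2i+LIF medium (a pair of kinase inhibitors with leukaemia inhibitory factor). RNA was taken 24 h later in 3 biological replicates, the one group of samples used here. Reporter plasmids in this assay are transient and lie outside the chromosomes, and all 3 replicates received the same plasmid pool, so the errors given hold the spread between transfections and not that between the barcoded plasmids of a construct. The number of barcodes and reads behind each activity is unknown.

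Enhancers are DNA elements that raise transcription from promoters through bound transcription factors, in their classical definition whatever their orientation and over distance. Nanog encodes a homeodomain transcription factor of the pluripotency network of embryonic stem cells, in which Oct4 (a POU factor), Sox2, Klf factors and Esrrb bind many active enhancers and promoters. The library also holds promoters of genes that are not known as embryonic stem cell genes, among them the Clec4 genes, which encode C-type lectin receptors of myeloid cells.

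The results turn on how E073 and E074 act with promoters that differ in their own activity. For 2 of these promoters the 250 bases before the annotated gene start are shown, from RefSeq (GRCm38.p6): that of Nanog in fragment P010, which was active alone, and that of Clec4a1 in fragment P017, which was not. Capitals mark matches to short motifs.
P010, Nanog, chr6:122707239-122707488, + strand: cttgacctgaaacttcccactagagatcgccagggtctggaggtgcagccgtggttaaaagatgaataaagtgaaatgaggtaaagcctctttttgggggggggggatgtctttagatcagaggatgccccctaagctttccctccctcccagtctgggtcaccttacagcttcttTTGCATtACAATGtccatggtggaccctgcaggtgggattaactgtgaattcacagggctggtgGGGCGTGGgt
P017, Clec4a1, chr6:122921598-122921847, + strand: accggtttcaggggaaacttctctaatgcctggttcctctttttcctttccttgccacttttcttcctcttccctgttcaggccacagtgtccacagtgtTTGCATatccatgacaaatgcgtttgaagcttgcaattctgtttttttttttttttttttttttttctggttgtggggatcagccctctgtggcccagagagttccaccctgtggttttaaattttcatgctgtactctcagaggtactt
Exact matches were searched on both strands. The POU core motif ATGCAA was found on the minus strand of both, with its first base in the printed orientation 74 bases before the Nanog start and 150 before the Clec4a1 start. This motif is also part of the longer ATGCAAAT, which matched in neither. The Nanog window further held the SOX core motif ACAATG, 67 bases before the start, and the KLF motif GGGCGTGG, 10 bases before it. Of 32851 promoter windows of this length, 9.45% held ATGCAA, 10.7% ACAATG and 4.79% GGGCGTGG. ACAAAG (in 16.5% of all windows), GGGTGTGG (3.20%), AAGGTCA (4.08%), TTCCNGGAA (0.913%) and ATGCAAAT (1.60%) had no match in either window. A match is a string of letters and not a measured binding site.

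Alone, E073 and E074 were among the most active fragments of the library. E073 in the plus orientation had an activity of 3.67, 3.84 and 3.50 in replicates 1, 2 and 3, and in the minus orientation 3.37, 3.60 and 3.32. E074 had 4.01, 4.02 and 3.70 in the plus orientation. In the minus orientation E074 had 2.51, 2.45 and 2.29. The orientations of E074 did not overlap, while those of E073 did. The vector without a fragment had 0.118, 0.0675 and 0.238, which puts E073 at 29.7-fold (plus) and 27.7-fold (minus) and E074 at 31.6-fold (plus) and 19.5-fold (minus) above it by geometric mean. Among the 202 oriented cCREs measured alone, E074+, E073+ and E073- ranked 1 to 3 and E074- ranked 6. The highest other was E005-, near the Polycomb gene Phc1, at 3.20. The promoter of M6pr, which encodes a mannose 6-phosphate receptor of lysosomal sorting, was the one promoter fragment above them (P001+, 4.69, 4.51 and 3.91).

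The replicates differ in their low end. The median cCRE alone had 0.134, 0.0632 and 0.256 in replicates 1, 2 and 3, and the constructs with E073 or E074 had medians of 2.47, 2.60 and 2.34. A log2 effect against a weak partner therefore tends to be largest in replicate 2 and smallest in replicate 3. The pair activities themselves are alike. The SDs of such effects below include this difference between replicates, in a share that was not tested. No construct with E073 or E074 had a replicate at 0, and 3 constructs had a partner that could not be compared because its value alone was lacking or had a replicate at 0.

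Constructs with either cCRE placed after a promoter were more active than the promoter alone in every case measured. Both cCREs were also active with no promoter, so this comparison cannot tell an effect on the promoter from the cCRE's own activity. Against the cCRE alone, the mean was -0.08 ± 0.03 for E073 and 0.06 ± 0.02 for E074 (log2, SD, n = 3). E073 was higher in 27 of 27 constructs with 11 promoter fragments and E074 in 45 of 45 with 13 (limma, adjusted p under the 0.05 threshold over all 25987 comparisons of the Nanog library). Over all 1450 comparisons of a cCRE placed after a promoter, 14.5% were higher. The mean log2 effect of E073 was 4.71 ± 1.08 (SD, n = 3 replicates; 4.63, 5.83 and 3.68 in replicates 1 to 3). That of E074 was 4.62 ± 1.06 (4.60, 5.69 and 3.57). The median log2 effect was 4.93 for E073 and 4.86 for E074, beside 0.13 over all cCREs after promoters. In all 27 and all 45 constructs the lowest replicate of the pair was above the highest replicate of the promoter alone, as in 20.4% of all such comparisons. Without replicate 1 none of these constructs passed in limma, and neither did any of the 25987 comparisons of the library. An unadjusted p under 0.05 was then found in 27 of 27 and 44 of 45, beside 2609 of the 25987.

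The largest effect after a promoter was with P019, the promoter fragment of Clec4a4. P019+ alone had 0.123, 0.0600 and 0.252, and P019+ followed by E074+ had 10.3, 7.06 and 11.1. The effect was 6.24 ± 0.60 (SE) on the log2 scale (limma, adjusted p = 0.0094). All 3 replicates of the pair were thus far above those of the promoter. P019+ with E074- followed at 5.66, and P017+ with E074+ at 5.72, where the pair had 5.16, 6.46 and 7.58 and P017+ alone 0.121, 0.0574 and 0.25. For E073 the largest effects were with P022, the promoter of Clec4b2, at 5.54 (P022- with E073+) and 5.44 (P022+ with E073-), and with P016, which lies 243 bp from Clec4a1, at 5.39 (P016+ with E073-). Against E073 alone in the same orientation, these pairs of E073 were at -0.21, 0.01 and 0.70 (log2), in that order. Against E074 alone in the same orientation, P019+ with E074+ was at 1.25, P019+ with E074- at 1.37 and P017+ with E074+ at 0.695. P022- and P022+ alone were 0.553-fold and 0.647-fold of the vector without a fragment. By partner mean, P022, P025 (the promoter of Clec4e) and P003 (1700063H04Rik) led for E073 at 5.26, 5.25 and 5.10. P019, P022 and P003 led for E074 at 5.95, 5.13 and 5.09. None of these promoters was above 0.3 in any replicate of the orientations named.

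The smallest single effects after a promoter were with P001- and P010, which were more active alone than most promoter fragments. P001-, the reverse orientation of the M6pr promoter, had 0.333, 0.278 and 0.415 alone. With E074- after it P001- had 0.988, 1.16 and 1.02, an effect of 1.64 ± 0.35 (SE; adjusted p = 0.0306). With E074+ the effect was 2.23, and with E073- it was 2.66. P010 of Nanog came next. By partner mean, P010 was lowest for E073 at 3.40, and P004 was among the 3 lowest at 4.73. P001 and P010 were lowest for E074 at 1.94 and 2.99.

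With the promoter of Nanog, E073 and E074 gave some of the highest activities of the promoter constructs although the log2 effect was among the smallest. P010+ alone had 0.789, 0.627 and 0.864 and P010- had 0.451, 0.341 and 0.522. P010+ followed by E073+ had 7.82, 8.46 and 7.83. P010+ followed by E073- had 7.37, 8.10 and 6.70. Both were above every replicate of E073 alone and of P010 alone, and the effects against the promoter were 3.41 ± 0.34 and 3.29 ± 0.34 (SE; limma, adjusted p = 0.0094 each). P010+ with E074+ had 6.72, 6.62 and 5.60, and P010+ with E074- had 5.33, 5.43 and 4.65, with effects of 3.06 and 2.77. With the Nanog promoter reversed the pairs were lower. P010- followed by E073- had 5.31, 5.29 and 4.21. P010- followed by E074+ had 4.53, 4.73 and 4.01, and P010- followed by E074- had 3.18, 2.91 and 2.83. These 3 effects, 3.51, 3.35 and 2.78, also passed (adjusted p = 0.0094 each).

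Before a promoter, the arrangement by which the cCREs were picked, the values are given as a description. All 26 constructs of E073 and all 56 of E074 were above the promoter alone by geometric mean. The mean log2 effect was 3.83 ± 1.01 for E073 and 3.56 ± 1.07 for E074 (SD, n = 3). The highest were E074+ before P017+, at 4.79, 6.15 and 5.83 and an effect of 5.53, and E074+ before P025- at 4.90. E074+ before P007+, the promoter of the RNA-editing gene Apobec1, followed with 7.34, 7.37 and 8.58 and an effect of 4.80. For E073 the highest were E073- before P017-, at 4.84, E073+ before P003-, at 4.71, and E073- before P023+ (Clec4n), at 4.63. The lowest were with the M6pr promoter, at 0.27 for E073+, 0.35 for E074+ and 0.63 for E074- before P001+. E074- before P014+, the promoter of the complement receptor gene C3ar1, had 0.265, 0.388 and 0.513 and an effect of 1.93. E073+ before P023- had an effect of 3.00.
Before the Nanog promoter, E073+ gave 6.49, 7.11 and 6.44 with P010+ and 6.54, 7.54 and 5.85 with P010-, and E073- gave 6.41, 6.43 and 6.40 with P010-. E074+ gave 6.56, 6.82 and 5.76 with P010+ and 5.11, 5.78 and 4.56 with P010-. E074- gave 4.78, 5.02 and 4.13 with P010+ and 3.59, 3.91 and 3.32 with P010-. The effects were 2.62 to 3.94, and E074- was below E074+ in each replicate with either orientation of P010. By partner mean, P010 and P023 were lowest for E073 (3.66 and 3.81) and P017, P003 and P004 highest (4.47, 4.25 and 4.00). For E074, P001, P020 (Clec4b1) and P010 were lowest (1.25, 2.78 and 3.08) and P017 and P025 were among the 3 highest (4.16 and 4.12).

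With other cCREs, in either position, E073 was higher than the partner alone in 351 of 376 constructs and E074 in 561 of 629, and neither was lower in any (limma). Over all 20299 comparisons of a cCRE added to a cCRE, 11.0% were higher. The mean log2 effect was 3.86 ± 0.94 for E073 (SD, n = 3; 3.79, 4.82 and 2.95) and 3.57 ± 0.91 for E074 (3.54, 4.50 and 2.68). The medians were 4.04 and 3.81, beside -0.07 over all cCREs. The groups of 3 replicates did not overlap, pair above partner, in 374 of 376 and 618 of 629 constructs, beside 18.9% of all such comparisons. Of all added cCREs, E073 and E074 had the highest medians, before E005 (3.64 over 89 constructs), E064 (3.42 over 564) and E023 (2.69 over 35). The comparison without replicate 1 gave 0 calls in limma for either cCRE and in the whole library. An unadjusted p under 0.05 was then found in 333 of 376 and 524 of 629, beside 2609 of all 25987 comparisons. Without replicate 2 the calls were 295 and 432, and without replicate 3 they were 323 and 513. Of all comparisons of the library 6.79% and 9.52% were called in these 2 fits, in either direction.

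The largest effects were again with partners at the level of the empty vector. E094+, in Slc2a3 (a glucose transporter gene), had 0.104, 0.0340 and 0.213 alone and 5.11, 6.20 and 4.97 with E073- after it. This effect was 5.89 ± 0.71 (SE; limma, adjusted p = 0.0094). E034+ with E073- (5.70) and E094- with E073- (5.65) followed. For E074 the largest were E094- (5.79), E034+ (5.71) and E117- (5.71), each followed by E074+. By partner mean E085, E114 and E046 led for E073 at 5.14, 4.99 and 4.98. E099, E075 and E085 led for E074 at 5.11, 4.96 and 4.82.

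The smallest were with partners that were themselves strong. E073+ before E023-, a fragment in Rimklb, had 2.59, 2.88 and 2.36 where E023- alone had 2.29, 2.52 and 2.35, so that the groups nearly coincide (0.13 ± 0.32, adjusted p = 0.97). E074- before E023- had 1.46, 2.36 and 1.73, an effect of -0.40 (adjusted p = 0.75). E005- followed by E074- had 2.96, 2.77 and 2.36 against 3.02, 3.37 and 3.24 for E005- alone, an effect of -0.26 (adjusted p = 0.88). E098+ followed by E074- had 2.52, 1.31 and 0.794 against 1.88, 1.61 and 1.48, also -0.26 (adjusted p = 0.95). By partner mean E005 and E023 gave 0.94 and 1.11 for E073 and 0.80 and 0.81 for E074, the lowest after the members' own pairing.

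Ordered by the activity of the partner alone, the effect shrank and the pair activity grew. All classes are counted in this ordering. It thus includes the 26 E073 and 56 E074 constructs before promoters, by which the cCREs were picked, and is a description. With partners under 0.15 the median log2 effect of E073 was 4.41 and the median pair activity 2.33 (276 constructs). With partners of 0.15 to 0.5 they were 3.84 and 3.07 (102 constructs), of 0.5 to 1.5 they were 2.26 and 5.40 (29 constructs), and above 1.5 they were 0.94 and 5.61 (22 constructs). For E074 the effects were 4.18, 3.59, 1.93 and 0.59 and the pair activities 1.98, 2.66, 3.58 and 4.45 over 468, 173, 54 and 35 constructs. The level of the partner alone enters the effect, so the fall of the effect is in part built in, while the pair activity was measured on other plasmids. With cCREs and after promoters only, the partner's median alone was 0.122 in the 984 comparisons called higher and 1.27 in the 93 not called.

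Joined to each other, the neighbouring fragments gave more than either alone by geometric mean in all 8 constructs, but less than their sum. E073+ followed by E074+ had 5.82, 6.29 and 5.28. The reverse order had 5.52, 6.28 and 4.90. E073- followed by E074+ had 5.67, 5.71 and 5.66, and E074+ followed by E073- had 4.87, 5.10 and 4.35. These 4 constructs with E074+ were above every replicate of E074+ and of E073 alone. The 4 with E074- were lower in each replicate. E073- followed by E074- had 4.44, 4.27 and 3.78, E074- followed by E073- had 4.21, 4.42 and 3.77, E074- followed by E073+ had 4.17, 4.26 and 3.69, and E073+ followed by E074- had 3.66, 4.13 and 3.54. Adding E073 to E074 gave a mean log2 effect of 0.60 ± 0.06 and adding E074 to E073 one of 0.40 ± 0.05 (SD, n = 3). No single construct passed against either fragment alone (limma, adjusted p from 0.23 to 0.84 for added E073 and 0.26 to 1.00 for added E074). The observed activities were 0.619 to 0.774 of the sum of both alone (adjusted p from 0.13 to 0.29).

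Read the other way, with E073 or E074 alone as the baseline, most partners left the activity near that of the member or below it. A cCRE joined to E073 gave less than E073 alone in 45 of 377 constructs and more in 1, and a cCRE joined to E074 less in 88 of 631 and more in 2 (limma). With the replicate as a block, since each transfection measured both constructs, 82 and 162 were lower, beside 5.55% of all added cCREs in that fit. Without replicate 1 there were 0 in limma, as in the whole library, with 20 of 377 and 29 of 631 lower at an unadjusted p under 0.05. In the library 2609 of 25987 comparisons then had such a p, in either direction. Without replicate 2 there were 8 for each, and without replicate 3 there were 9 and 16. Of all 25987 comparisons 62 and 198 were lower in these 2 fits. In the library as a whole 2.21% of added cCREs were lower than their partner, where most partners are at the level of the empty vector. The values differed by position. Partners placed after E073 gave a mean of -0.63 ± 0.06 and partners placed before it -0.20 ± 0.03 (SD, n = 3). For E074 they gave -0.77 ± 0.07 and -0.18 ± 0.03. Promoters placed before E073 or E074 gave -0.08 ± 0.03 and 0.06 ± 0.02. Promoters placed after them gave -0.79 ± 0.09 and -0.90 ± 0.15, as a description.

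A few cCREs joined to E073 or E074 gave far less than the member alone. The 5 described here, with the lowest means among partners with at least 4 constructs, were chosen after their values were seen. The largest fall was with E133, an intergenic fragment 6108 bp from Clec4b2 (chromosome 6, 123210779 to 123211229). All 15 constructs of E133 with E073 or E074 were lower than the member alone in limma, by a mean of -2.67 ± 0.29 (SD, n = 3) and with a range of -3.86 to -1.86 on the log2 scale. E074+ followed by E133- had 0.272, 0.200 and 0.359, where E074+ alone had 3.70 to 4.02. E073- followed by E133- had 0.355, 0.113 and 0.379, the lowest of all constructs with E073 or E074. E133- alone had 0.120, 0.0555 and 0.246, and 13 of the 15 constructs were not called above E133 alone, with log2 effects of 1.07 to 2.51. At the other end of the 15, E073+ followed by E133+ had 1.19, 0.966 and 0.897, still under every replicate of E073+.
The fall held in both orders and all orientations measured. It was also seen with the other strong cCREs E005, E064 and E023, where 8 of 8 constructs with E133 were lower than that cCRE alone by a mean of -2.80. Over all cCREs other than E073 and E074, those 3 included, 26 of 296 were lower, with a mean of -0.52. E110, 6243 bp from C3ar1, lowered 12 of 14 constructs of E073 and E074 (mean -1.79 ± 0.11), E062, 14757 bp from the predicted gene Gm8460, lowered 9 of 13 (-1.85 ± 0.11), and E105, in the forkhead gene Foxj2, lowered 6 of 9 (-1.68 ± 0.17). All called constructs of E105 had it second, and none with E105 first was called. The constructs of E062 that were not called all had it before E074. With E005, E064 and E023, E110 lowered 8 of 8, E062 6 of 8 and E105 4 of 6. Over all cCREs other than E073 and E074, E110 lowered 20 of 217, E062 22 of 251 and E105 10 of 150. E112, 3479 bp from the endocytosis gene Necap1, lowered 3 of 5, with all 3 in the minus orientation. It was measured only after E073 or E074, and over all other cCREs it lowered 5 of 56. E112- after E074+ left 0.306, 0.263 and 0.392, and E112+ after E074+ left 3.11, 2.83 and 2.74, the latter not called against E074+ (adjusted p = 0.63).

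E082 was also chosen after its values were seen. This fragment in Slc2a3 gave the highest activity of all constructs with E073 or E074: E073+ followed by E082- had 12.1, 16.8 and 12.2. E082- alone had 0.353, 0.246 and 0.473. The pair was 1.88 ± 0.34 (SE) above E073+ alone (limma, adjusted p = 0.0183) and 3.35-fold above the sum of both (adjusted p = 0.0303). E074- followed by E082- had 10.4, 8.60 and 5.98 and also passed (1.75, adjusted p = 0.0306), while E074+ followed by E082- had 12.1, 10.1 and 7.32 and did not (1.30, adjusted p = 0.0747). The 6 constructs with E082- ran from 4.37 to 13.5 and the 6 with E082+ from 1.03 to 2.51, so that the orientations of E082 did not overlap in any context. With E005, E064 and E023, 2 of 8 constructs with E082 were higher than that cCRE alone. Over all cCREs other than E073 and E074, those 3 included, 6 of 158 were higher, with a mean of 0.33.

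E074 was on average more active in the plus than in the minus orientation, and higher in value in nearly every context. E074+ was above E074- with the same partner, partner orientation and position in 288 of 297 pairs with a cCRE, in 25 of 26 before a promoter and in 21 of 22 after one. The mean log2 difference with cCREs was 0.53 ± 0.01 (SD, n = 3; 0.51, 0.54 and 0.53 in replicates 1 to 3), with a median of 0.55. Before promoters it was 0.68 ± 0.01 and after promoters 0.39 ± 0.07. It was present with E074 in the first position (0.56 ± 0.03) and in the second (0.48 ± 0.01). No single pair passed in limma, in which 0.0% of the 8181 strand comparisons of the library did. An unadjusted p under 0.05 was found in 112 of the 297, beside 1100 of the 8181. With the replicate as a block there were again 0, here and in the library. In that fit 161 of the 297 had an unadjusted p under 0.05, beside 2038 of the 8181. When limma's prior variance was allowed to follow the activity level (eBayes with trend and robust), 224 of all 345 strand comparisons of E074 were higher in the plus orientation, beside 9.96% in the library. With quantile-normalized values they were 102, beside 14.1% called in either direction in the library.
For E073 with cCREs the plus orientation was about as often the lower one. E073+ was above E073- in 54 of 114 pairs with a cCRE, with a mean difference of -0.01 ± 0.01. Before promoters it was above in 2 of 8, with -0.35 ± 0.04, and after promoters in 6 of 9, with 0.19 ± 0.01 (SD, n = 3). With eBayes with trend and robust, 14 of all 131 strand comparisons of E073 were higher and 13 lower in the plus orientation, the higher ones near the library's share. In limma with its constant prior 0 were, with 8 of 131 at an unadjusted p under 0.05, beside 1100 of 8181 in the library. The single contexts of E073 ran from -0.93 to 1.25, and the IQR with cCREs was -0.18 to 0.18. Of the 69 cCREs with at least 20 comparisons, ranked by the size of their mean strand difference, E074 was 10 and E073 was 69, the smallest. The largest was E134, with 2.15.

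The position within the construct also moved the activity. With the same cCRE in the same orientations, constructs with E074 in the second position were higher in 209 of 256 comparisons, with a mean log2 difference of 0.56 ± 0.04 (SD, n = 3). For E073 they were higher in 74 of 94, with 0.42 ± 0.06. In limma 30 of the E074 comparisons were higher in the second position and 0 lower, and 7 of the E073 comparisons were higher and 1 lower, where 5.43% of 2506 comparisons between cCREs differed in either direction. With the replicate as a block none passed in limma for either, nor did any of all 3175 comparisons of the library. An unadjusted p under 0.05 was found in 157 of 260 for E074 and 46 of 98 for E073 (both with their own pairing included), beside 1031 of the 3175. Leaving out any 1 replicate also left 0 calls for both and in the library. At an unadjusted p under 0.05 were 34 to 76 comparisons of E074 and 8 to 19 of E073, beside 225 to 553 of the 3175. With eBayes with trend and robust 166 of the 256 comparisons of E074 were higher in the second position and 25 lower, and 50 of the 94 of E073 were higher and 10 lower, beside 24.1% called in either direction in the library. The medians with cCREs were 0.59 and 0.68 for E074+ and E074- and 0.46 and 0.37 for E073+ and E073-. With promoters, as a description, they were 0.76 and 1.25 for E074+ and E074- and 1.10 and 0.35 for E073+ and E073-.
The largest difference between cCREs was with E132-. E132- followed by E074- had 2.21, 2.13 and 2.03, and the reverse order had 0.460, 0.448 and 0.642, a difference of 2.06 ± 0.25 (SE; limma, adjusted p = 0.0269). E037+ followed by E073+ had 2.27, 2.42 and 1.53 and the reverse order 0.551, 0.614 and 0.691 (1.72, adjusted p = 0.0374). The one comparison called in the opposite direction was E057+ with E073-, at 2.05, 2.22 and 2.06 with E073 second and 4.69, 5.41 and 4.71 with E073 first. These order pairs were named after their values were seen. With promoters, as a description, the second position was higher by 0.92 ± 0.13 for E074 (36 of 42) and 0.78 ± 0.07 for E073 (14 of 16). Among cCREs with at least 20 comparisons, E074 had the fourth and E073 the ninth highest mean order difference of 63, led by E064 at 0.81. How each position lies towards the reporter is not given in the sources used here.

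Set against each other with the same partner, orientation and position, E073 and E074 were close on average in the plus orientation, and E073 was mostly higher in the minus orientation. The contexts before promoters, where both were picked, are left out here. Over 206 contexts in the plus orientation E073 minus E074 was 0.04 ± 0.03 (mean log2, SD, n = 3), with E073 higher in 114. Over 189 in the minus orientation it was 0.52 ± 0.04, with E073 higher in 174. In limma 8 contexts were higher with E073 and 0 with E074, all 8 in the minus orientation, while in the plus orientation 9 of 206 had an unadjusted p under 0.05. Of all 10167 such comparisons of neighbouring cCREs, the cCRE at the lower coordinate was called higher in 9.9%, so the 8 of 395 are below the background in this fit. That order changed with the fit: with eBayes with trend and robust 158 of 395 were higher with E073 beside 16.5%, and with quantile-normalized values 94 of 395 beside 21.2%. When any 1 replicate was left out there were 0 calls in limma, with 2 to 19 of 395 higher with E073 at an unadjusted p under 0.05. Of all 10650 neighbour comparisons, those before promoters included, 0 were called without replicate 1 or 2. Without replicate 3, 737 were called higher and 496 lower. An unadjusted p under 0.05 was found in 3033 with all replicates and in 1431, 2256 and 3134 without replicates 1, 2 and 3. With E132+ after it, E073- had 5.94 and E074- 1.74 (1.77 ± 0.28, adjusted p = 0.0131), and after E134+ they had 7.69 and 2.81 (1.45, adjusted p = 0.0246), both pairs named after their values were seen. Over the 395 contexts, from 96 partner fragments, the log2 activities of E073 and E074 constructs correlated with a Pearson's r of 0.85. The contexts share partner fragments and the same transfections, and the fragments share 66 bp, so this is a description.

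Most pairs of E073 or E074 with a cCRE stayed below the sum of the activities of both alone. Limma called 67 of 376 E073 constructs and 140 of 629 E074 constructs below the sum and 1 and 2 above it, and 5.36% of all 10147 pairs of cCREs were below. With the replicate as a block 169 and 309 were below, but so were 64.7% of all pairs of cCREs, and the shares of E073 (44.9%) and E074 (49.1%) were then under that of the library. When any 1 replicate was left out 0 were, in limma, with 58 to 102 and 114 to 201 below at an unadjusted p under 0.05. Of all 12991 comparisons with a sum in the library, of every class, 0 were then called. An unadjusted p under 0.05, in either direction, was found in 796 to 3401 of them. The median log2 distance from the sum was -0.45 for E073 and -0.55 for E074. With the member first the mean distance was -0.86 ± 0.07, and with the member second -0.33 ± 0.06 (SD, n = 3). Where both fragments alone had an activity of at least 1 the 76 constructs had a median of -0.16, with 3 called below and 0 above, and 29 above the sum in value.
Promoters followed by E073 or E074 lay on both sides of the sum. The mean log2 distance was -0.15 ± 0.01 for E073 (27 constructs, 1 called above) and -0.03 ± 0.03 for E074 (45 constructs, 1 called above and 2 below), beside 3.52% called in either direction among 1450 in the library. Single constructs ran from -0.83 to 1.37 for E073 and from -1.43 to 1.28 for E074, with an unadjusted p under 0.05 in 11 of 27 and 17 of 45. Over all 12991 comparisons with a sum in the library, of every class, 3139 had such a p. The 2 called above were P007+ followed by E073-, with 8.19, 11.2 and 9.67 and 2.58-fold the sum (adjusted p = 0.0392), and P019+ followed by E074-, with 7.17, 6.17 and 5.44 and 2.43-fold the sum (adjusted p = 0.0422). Among pairs of cCREs, E099+ followed by E074- (3.05-fold, adjusted p = 0.0282) and E074- followed by E082- (2.92-fold, adjusted p = 0.0446) were above for E074, and E073+ followed by E082- for E073. The constructs with the Nanog promoter P010 were above the sum in value in all 14, by 1.02-fold to 1.81-fold with a median of 1.41-fold. After any promoter, 7 of 27 E073 and 18 of 45 E074 constructs were above the sum in value. Before promoters, as a description, these were 3 of 26 and 10 of 56. The share of all library pairs above the sum in value was not computed. Of the 14 with P010, the 7 with the promoter first had adjusted p-values of 0.0794 to 0.93 in limma, so that no single one passed. Those with the promoter second are a description.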

How the data were processed

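Activities are a linear ratio of cDNA to plasmid DNA barcodes per biological replicate, as deposited by the authors. The deposited boost index is a log2 value of the authors. Per the submitters' processing notes, Bowtie2 and mm10 were used. How barcodes were counted, filtered and scaled is not given in the sources used here, and 16 value columns that belong to no single sample were not used for tests. Log2 activities were compared with limma 3.58.1 in R 4.3.3 (3 values against 3, Benjamini-Hochberg adjusted over the whole Nanog library, threshold 0.05), leaving out constructs or partners with a replicate at 0. Tables were made with Python 3.11.15, pandas 2.3.3 and numpy 2.4.6. Comparisons were with the partner alone, the other strand, the other order, the neighbouring cCRE and the sum of both fragments alone. The script was checked on data with known answers. Means over partners carry the SD over 3 replicates and no p, since a sign-flip test over 3 cannot go below 0.25.

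Replicates pair constructs because 1 transfection measured them all, and deviations of pair and partner from their means correlated at 0.07, 0.42 and 0.47 in replicates 1, 2 and 3. The named constructs are those of E073 and E074 alone, with each other and with P010, and the 3 highest and 3 lowest effects per class and partner means with at least 2 constructs. Others are said to be named after their values were seen. Partner means of 1 promoter fragment that the rule picked are not reported here. The members, partners and lists were chosen with earlier results of these data known. The planned motif search in the cCRE fragments, with composite motifs, was not run, since no genome sequence was used here, and promoter windows were searched instead.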

Additional observations from a re-analysis of the deposited data

How the results depend on the processing

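Alternatives kept constructs at 0 with a pseudocount of 0.01, required a geometric mean of at least 0.05, quantile-normalized the replicates, took the median construct of the partner as baseline, added the replicate as a block, let limma's prior follow the level with robust fitting, took medians over partners, or left out a replicate. Calls of E073 and E074 against the partner alone, with cCREs and after promoters, changed by more than 1.5 times only without replicate 1: from 0 to 323 and 0 to 513 over the left-out replicates with cCREs, and from 0 to 27 and 0 to 43 after promoters. Of all 25987 comparisons of the library 0, 6.79% and 9.52% were called without replicates 1, 2 and 3. Pairs below E073 alone (45) were 168 quantile-normalized, 16 with the median baseline, 82 with the replicate block, 199 with trend and robust, and 0 to 9 without a replicate. For E074 (88) these were 303, 23, 162, 352 and 0 to 16. This set of alternatives was chosen after seeing the data. Of all added cCREs 15.4% were lower quantile-normalized, 0.581% with the median baseline, 5.55% with the replicate block and 7.18% with trend and robust. Over all 25987 comparisons of the library 0, 62 and 198 were lower without replicates 1, 2 and 3. Strand calls, 0 for both, were 1 and 14 for E073 and 102 and 224 for E074 when quantile-normalized and with trend and robust. In these 2 fits 14.1% and 16.7% of all strand comparisons of the library were called in either direction. Order calls of E073 (7) were 11 with the minimum of 0.05, 34 quantile-normalized, 0 with the replicate block, 50 with trend and robust and 0 when any 1 replicate was left out. For E074 (30) they were 136, 0, 166 and 0, in that order without the minimum. Of all order comparisons of the library, 26.2% were called in either direction when quantile-normalized and 23.5% with trend and robust. With the replicate block, or with any 1 replicate left out, 0 of the 3175 were. Calls below the sum of E073 (67) were 211 quantile-normalized, 169 blocked, 229 with trend and robust and 0 when any 1 replicate was left out, and for E074 (140) 380, 309, 408 and 0. Of all pairs of cCREs 68.6%, 64.7% and 18.9% were below the sum in the first 3 of these fits, so that the shares of E073 and E074 were under the library's when quantile-normalized (56.1% and 60.4%) or blocked and above it with trend and robust (60.9% and 64.9%). With any 1 replicate left out, 0 of all 12991 comparisons with a sum were called in the library. Calls of E073 over E074 (8) were 94, 158 and 0, quantile-normalized, with trend and robust and when any 1 replicate was left out. Of all 10650 neighbour comparisons 0 were called without replicate 1 or 2, and 11.6% in either direction without replicate 3. The causes were not tested. The replicate block changed no other call count of these by over 1.5 times. Medians over partners were 0.55 for the strand and 0.62 for the order effect of E074, and -0.45, -0.55 and -0.10 for the distance from the sum of E073 and E074 with cCREs and of E074 after promoters. Among single constructs, E074 with E005- turned to 0.0515 and with E098+ to 2.38 with the median baseline, and, from -0.5943 to 0.06524 over the left-out replicates, with E098+ when replicate 3 was left out. With barcode numbers unknown, small differences between single constructs cannot be separated from sampling.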
